A study of Mus musculus with 13 samples.

Results

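The chemokine system was described here as every gene of the count table whose symbol names a chemokine ligand (Ccl, Cxcl, Cx3cl1 and Xcl1) or a conventional chemokine receptor (Ccr, Cxcr, Cx3cr1 and Xcr1). This gave 58 of the 24421 listed genes, 39 ligands and 19 receptors. Of these, 38 genes, 24 ligands and 14 receptors, had a mean above 1 CPM in at least 1 group, and these are the ones described by level. CPM, the usual unit of library-scaled counts, sets the reads counted for a gene against the total of its library, after scaling by a normalization factor of that library (TMM).

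RNA was sequenced from 11 tumors and 2 cancer-free glands of FVB/N-TgN mice of the line 202Mul/J, which carry MMTV-HER2/neu. All 5 groups share the transgene, a rat HER2/Neu cDNA driven in mammary epithelium by the promoter of the mouse mammary tumor virus, although the genotype field of the labels reads "Wild type". The groups were mammary gland from untreated mice (n = 2), primary untreated tumors (n = 3), primary tumors under stavudine (STV, n = 3), tumors that recurred under 17-DMAG (n = 3) and tumors that recurred under 17-DMAG with stavudine (n = 2). Stavudine, a nucleoside analog that inhibits reverse transcriptase, was given at 1 mg/mL in drinking water, and the control mice drank the same water without it. It was begun either in young mice or once tumors had appeared, and the labels do not say which applied to a given mouse. The HSP90 inhibitor 17-DMAG was injected at 20 mg/kg into tumor-bearing mice. Ages at collection are not given in the sources used here. Each library is 1 sample of a group, the sources do not say that each came from its own mouse, and the p-values below therefore measure the spread between these samples.

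Chemokines are small secreted proteins that bind G protein-coupled receptors on leukocytes and other cells and direct where those cells move. Inflammatory ligands such as Ccl2 or Cxcl10 are induced by cytokines, NF-kB or interferon and recruit monocytes, neutrophils or effector T cells. Homeostatic ligands such as Ccl19, Cxcl12 and Cxcl13 place cells within lymphoid organs, bone marrow and stroma, and Ccl28 of the lactating mammary gland attracts antibody-secreting cells that carry Ccr10. Most ligands lie in gene clusters. In the mouse genome build GRCm38, 14 of the genes lay on chromosome 11, where the inflammatory CC ligands are clustered, 11 on chromosome 5 with most CXC ligands, and 12 on chromosome 9 with most CC receptors.

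The promoters of Cxcl1 and Cxcl10 are shown because Cxcl1 was the 1 member whose recurrent tumors all lay above all primary tumors, and Cxcl10 was among the members named in 3 of the tumor comparisons. Each sequence is the 250 bases before the annotated start of the gene, from RefSeq on GRCm38.p6, read on the strand of the gene: Cxcl1 chr5:90890995-90891244 on the plus strand and Cxcl10 chr5:92348890-92349139 on the minus strand. Capitals mark matches to an NF-kB motif (GGGA, any 2 bases, TTCC) or an interferon response element, ISRE (GAAA, any 2 bases, GAAA), searched on both strands.
Cxcl1: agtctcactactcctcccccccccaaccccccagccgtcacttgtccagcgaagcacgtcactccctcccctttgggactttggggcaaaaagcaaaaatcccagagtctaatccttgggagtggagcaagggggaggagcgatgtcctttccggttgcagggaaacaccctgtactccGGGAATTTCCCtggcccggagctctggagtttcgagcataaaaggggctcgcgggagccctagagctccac
Cxcl10: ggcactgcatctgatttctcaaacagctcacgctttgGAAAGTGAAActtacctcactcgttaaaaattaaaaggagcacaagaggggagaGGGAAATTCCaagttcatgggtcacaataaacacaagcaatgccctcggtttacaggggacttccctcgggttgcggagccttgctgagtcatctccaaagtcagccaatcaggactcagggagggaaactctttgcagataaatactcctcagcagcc
The capitals in Cxcl1 hold 2 overlapping NF-kB matches, 1 on each strand. Those in Cxcl10 hold 1 ISRE match, nearer the 5′ end, and 1 NF-kB match. The NF-kB motif was present in 397 of 32851 promoters of this length (1.21%) and in 6 of the 42 members with a promoter in the table (Ccl1, Ccr3, Cxcl1, Cxcl10, Cxcl2 and Cxcl3). The ISRE motif was present in 978 promoters (2.98%) and in 3 members (Ccl19, Cxcl10 and Cxcl14). These letters were not found in the same window of Cx3cl1 or Cxcl9. A match describes the sequence and was not set against any binding data.

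Library totals ran from 39921388 to 56887708 counts, and 3 counts, taken as the limit of detection, equalled 0.0587 to 0.107 CPM. Between 44 and 53 members had a count in a library. The members' share of all counts was lowest in primary untreated tumor 2 at 0.0201% (0.0197 to 0.0205, Wilson 95% interval) and highest in gland 1 at 0.0647% (0.0639 to 0.0654). Such limits and intervals cover counting error only. The tumors carried their luminal epithelial markers, whose summed level was 1379 to 2825 CPM in tumors and 1659 and 1907 CPM in the glands.

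The 2 glands differed from each other in tissue makeup, and 2 recurrent tumors had the highest tumor sums of some marker lists. In gland 1 the B cell markers summed to 194.5 CPM and the T cell markers to 152.4 CPM, against 3.82 and 11 CPM in gland 2 and 1.52 to 3.52 and 5.48 to 12.7 CPM in tumors. Markers of lymph node stroma and follicles summed to 123.4 CPM in gland 1, 10.6 CPM in gland 2 and 3.38 to 5.97 CPM in tumors. Milk protein genes summed to 766733 CPM in gland 2 and 28073 CPM in gland 1, and the normalization factor of gland 2 was 0.493, against 0.999 to 1.12 elsewhere. Recurrent 17-DMAG tumor 1 had the highest summed markers of macrophages (617.8 CPM), monocytes (413.7 CPM) and fibroblasts (6349 CPM) of the 11 tumors. Its monocyte sum was mostly Vcan (293.1 CPM) and F13a1 (110.4 CPM). Recurrent 17-DMAG + STV tumor 2 had the highest basal and myoepithelial sum of the tumors (269.8 CPM) and the highest skeletal muscle sum (5543 CPM). Its basal and myoepithelial sum was mostly Acta2 (148.5 CPM) and Trp63 (86.4 CPM). Of the same list, Krt5 (1.10 CPM), Krt14 (0.897 CPM), Myh11 (17.5 CPM), Cnn1 (1.90 CPM) and Oxtr (13.5 CPM) were not the highest there. Skeletal muscle markers also summed to 4186 CPM in primary untreated tumor 1 and 1476 CPM in recurrent 17-DMAG tumor 3. In bulk tissue, fewer cells of a type and less RNA per cell cannot be told apart.

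**Figure D1:**
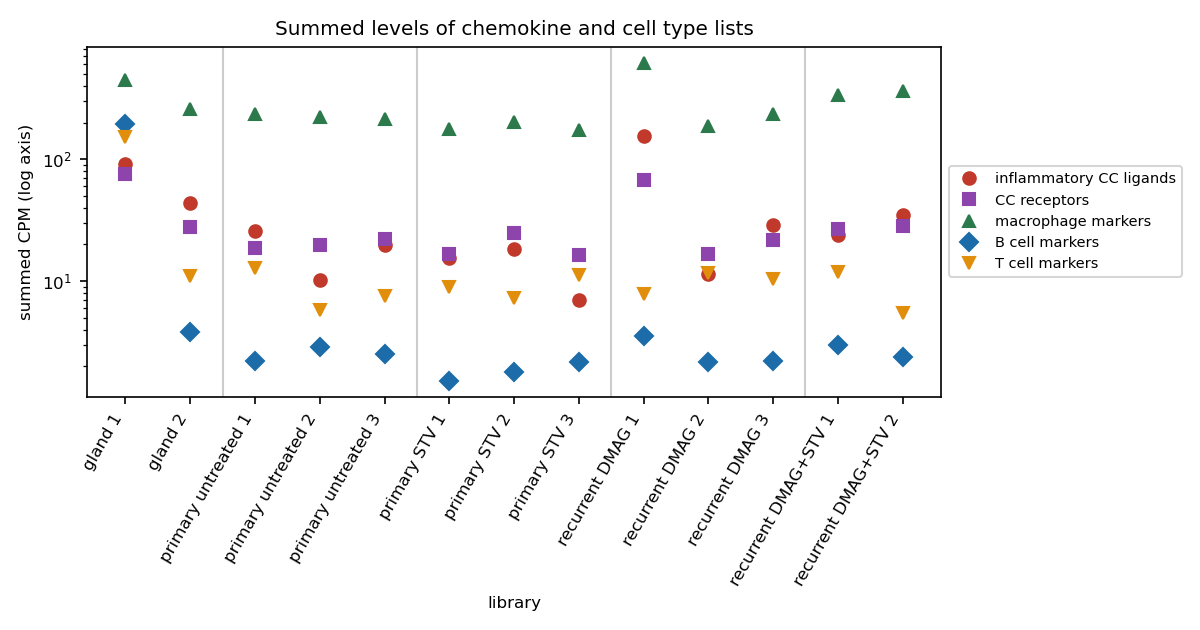
Summed CPM (log axis) of the inflammatory CC ligands, the CC receptors and 3 cell type marker lists in each of the 13 libraries, with grey lines between groups. Gland 1 is high in B and T cell markers, and recurrent 17-DMAG tumor 1 is the tumor with the highest inflammatory CC ligands, CC receptors and macrophage markers.

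Read per kilobase of exon, which allows genes to be compared within a library, the tumor chemokine RNA was led by receptors and stromal or epithelial ligands. The median level over the 11 tumors was 20.0 CPM per kb for Cxcr4, the receptor of Cxcl12, and 10.7 for Cx3cl1, a ligand made as a membrane-bound protein. It was 7.26 for Cx3cr1, the Cx3cl1 receptor of macrophages and microglia, 6.62 for Cxcl12, 4.96 for Cxcl14, 4.55 for the CC ligand Ccl8 and 4.48 for Cxcl16, a membrane-bound ligand of Cxcr6. Cxcr6 itself stood at 3.92 and Ccl6 at 3.06 CPM per kb, and the other members above 1 CPM at 1.90 or lower. Both complete ligand and receptor pairs of the Cxcl12 and Cx3cl1 axes were therefore among the 4 highest members. The annotated span of Cx3cr1 overlaps 5 other listed genes, among them Wdr48 (54.5 to 95.2 CPM in tumors) on the opposite strand and Gorasp1 (16.9 to 50.2 CPM) on its own strand, with no shared exon bases, and the part of their reads in its level was not tested.

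The members at the threshold were Ccl24 and Cxcl15 just inside, with a highest group mean of 1.10 and 1.17 CPM, and Cxcl11 and Xcl1 just outside, with 0.998 and 0.938 CPM. The 20 members at or below 1 CPM in every group were the ligands Ccl1, Ccl3, Ccl4, Ccl17, Ccl20, Ccl21a, Ccl21b, Ccl21c, Ccl26, Ccl27b, Cxcl2, Cxcl3, Cxcl5, Cxcl11 and Xcl1 and the receptors Ccr1l1, Ccr3, Ccr4, Ccr8 and Cxcr1. Of these, 4 (Ccl21a, Ccl21b, Ccl21c and Ccl27b) were listed at 0 in every library. The Ccl21 genes and the Ccl27 genes have near-identical copies, and since nothing says how reads with several matches were counted, these zeros are uncertain. The levels of Ccl27a carry the same uncertainty.

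**Figure D2:**
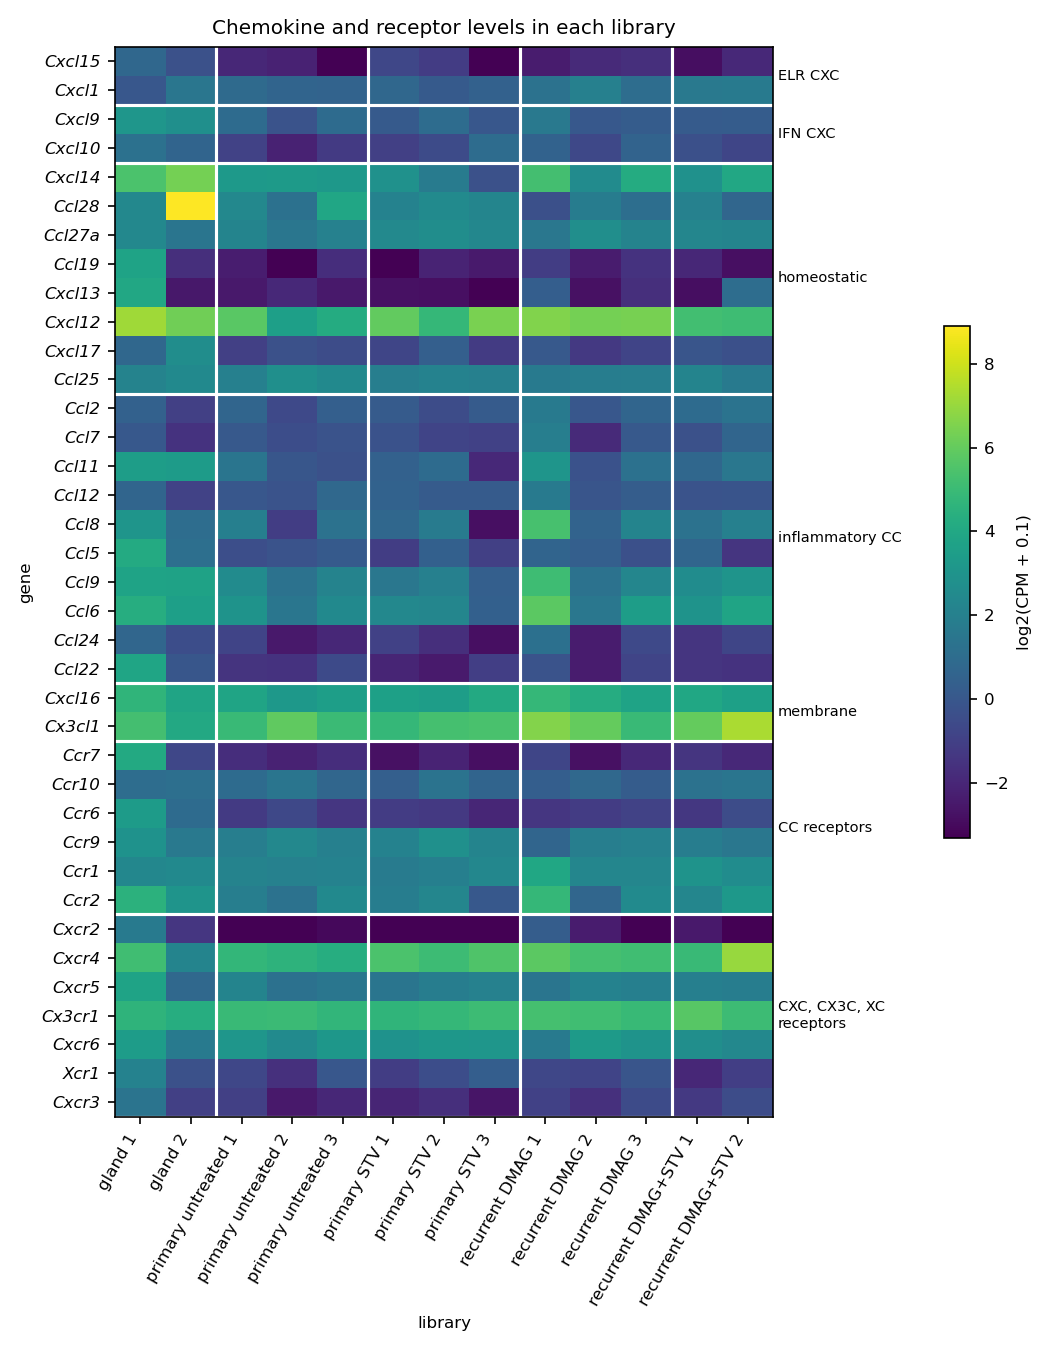
Level of 37 of the 38 members above 1 CPM (rows, grouped by role) in the 13 libraries (columns, grouped by tissue and treatment) as log2(CPM + 0.1). Cxcl12, Cx3cl1, Cxcr4 and Cx3cr1 are high in every tumor, Ccl28 is highest in gland 2, and the lymphoid members Ccr7, Ccl19 and Cxcl13 are high in gland 1.

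The first comparison asked which chemokine genes differ between tumors and cancer-free gland. Tumors had lower levels of the lymphoid-tissue chemokines and receptors (Ccl19, Cxcl13, Ccl22, Ccr6, Ccr7), of the T cell attracting ligands Ccl5 and Cxcl9, and of the epithelial ligands Ccl28, Cxcl14 and Cxcl17. Over the mean of the 4 tumor groups, 14 of the 48 members that passed the filter on low counts were called by edgeR's quasi-likelihood test at an adjusted p under 0.05, all lower in tumors, beside 10.4% of all 17135 genes tested (1.6% higher and 8.81% lower). The CPM ranges of glands and tumors did not overlap for 10 members that were lower and 1 that was higher in tumors, beside 7.37% and 4.14% of all genes. Cxcr2, Cxcl11 and Ccl20 passed the filter only with the glands. For Cxcr2 and Cxcl11, both among the 14, the gland mean was the highest group mean, so their difference was fixed by the filter. Ccl20 was not high in the glands, at 0.323 and 0.0714 CPM, and its highest tumor was at 0.648 CPM. It was not called. Of the 45 members that passed the filter also without the glands, 12 were called, all lower, and 9 lower and 1 higher did not overlap. The median log2 fold change of the members above 1 CPM was −1.22, and that of all genes −0.02. With only 2 glands, and these unlike each other, most single calls rested on 1 gland, as given gene by gene below.

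Of the called members, 2 kept their call when any 1 of the 13 libraries was left out. Ccr6, the receptor of Ccl20 on B cells and mucosal T cells, had 10.3 and 1.82 CPM in the glands, with a lowest, median and highest tumor of 0.148, 0.319 and 0.612 CPM. Both glands lay above every tumor, and the log2 fold change was −4.08 (SE 0.47, adjusted p = 0.00126, edgeR). Cxcl9, an interferon-gamma induced ligand of Cxcr3, had 8.58 and 6.78 CPM in the 2 glands, and 0.774, 1.08 and 2.96 CPM in the lowest, median and highest tumor. Its glands were close to each other and above all tumors, and its log2 fold change was −2.50 (SE 0.42, adjusted p = 0.00614, edgeR).

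The members of lymphoid organs were carried by gland 1, the gland with the B and T cell markers. Ccr7, which brings dendritic cells and naive T cells into lymph nodes, was at 17.3 CPM in gland 1 and 0.50 CPM in gland 2, and the tumors ran from 0.0422 to 0.486 CPM with a median of 0.163 CPM. Its ligand Ccl19 was at 13.7 CPM in gland 1 and 0.214 CPM in gland 2, and at 0 to 0.370 CPM in tumors (median 0.0996 CPM). Cxcl13, which draws B cells into follicles, was at 16.1 CPM in gland 1 and 0.0714 CPM in gland 2, and at 0 to 1.96 CPM in tumors (median 0.0796 CPM). For each of these 3 genes gland 1 was far above all other libraries and gland 2 lay near or within the tumor range.

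Their fitted log2 fold changes were −5.78 for Ccr7 (SE 0.79, adjusted p = 0.00265, edgeR), −5.90 for Ccl19 (SE 1.01, adjusted p = 0.00708) and −5.32 for Cxcl13 (SE 1.21, adjusted p = 0.0219). Without gland 1 none of the 3 was called, with log2 fold changes of −1.59, −0.85 and 1.48, so the direction of Cxcl13 turned. Fold changes of genes with counts at 0 depend on the small prior count of the fit. Without recurrent 17-DMAG + STV tumor 1, the adjusted p of Cxcl13 was 0.0512.

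The same gland carried the T cell and dendritic cell ligands. Ccl22, a ligand of Ccr4 made by dendritic cells and macrophages, was at 14.4 and 0.856 CPM in the glands and at 0.0870 to 0.787 CPM in tumors (median 0.259 CPM), giving log2 fold change −4.65 (SE 0.73, adjusted p = 0.00488, edgeR). Ccl5, a ligand made by T and NK cells, was at 17.8 and 2.11 CPM in the glands and at 0.265 to 1.49 CPM in tumors (median 0.774 CPM), with a log2 difference of −3.54 (SE 0.63, adjusted p = 0.00779). Both glands exceeded every tumor for these 2 genes. Without gland 1 the log2 fold changes were −1.46 and −1.26 and neither was called.

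Among the receptors, Cxcr3 was called near the threshold. Cxcr3, the receptor of Cxcl9 and Cxcl10 on activated T cells, was at 2.54 and 0.393 CPM in the glands and 0.0633 to 0.612 CPM in tumors (median 0.223 CPM), with a log2 difference of −2.42 (SE 0.64, adjusted p = 0.0384, edgeR). Gland 2 lay within the tumor range, and the call was lost when any of 9 of the 13 libraries was left out, with a log2 fold change of −0.48 without gland 1. Cxcr2, the receptor of neutrophil-attracting ligands, was counted 155 and 8 times in the glands (3.13 and 0.285 CPM), and had 48 counts (1.11 CPM) in recurrent 17-DMAG tumor 1 and 0 to 4 counts in the other tumors. Since Cxcr2 passed the filter only through the glands, its fold change and test are not given as a result. The other called members were Xcr1, a receptor of cross-presenting dendritic cells, and Cxcl11, to which the same limit applies.

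Of the epithelial ligands, Ccl28 was carried by gland 2, the gland with the milk protein RNA, while Cxcl14 and Cxcl17 were above every tumor in both glands. Ccl28 was at 481.9 CPM in gland 2 and 5.07 CPM in gland 1, and at 0.695 to 15.3 CPM in tumors (median 4.05 CPM), so that gland 1 lay within the tumor range. Its log2 fold change was −5.99 (SE 0.90, adjusted p = 0.00405, edgeR) and −0.33 without gland 2. Cxcl17, a mucosal ligand, was at 1.58 and 6.39 CPM in the glands and 0.313 to 1.22 CPM in tumors (median 0.622 CPM). Cxcl14, made by epithelium and stroma, was at 43.2 and 80.6 CPM in the glands and 0.717 to 38.6 CPM in tumors (median 9.06 CPM).

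The log2 fold changes were −2.62 for Cxcl17 (SE 0.52, adjusted p = 0.0132, edgeR) and −2.67 for Cxcl14 (SE 0.60, adjusted p = 0.0213). Without gland 2 they were −1.20 and −2.06 and neither gene was called, in a fit that called 3.01% of all genes. Cxcl14 also lost its call without recurrent 17-DMAG + STV tumor 1 (adjusted p = 0.0514).

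**Figure D3:**
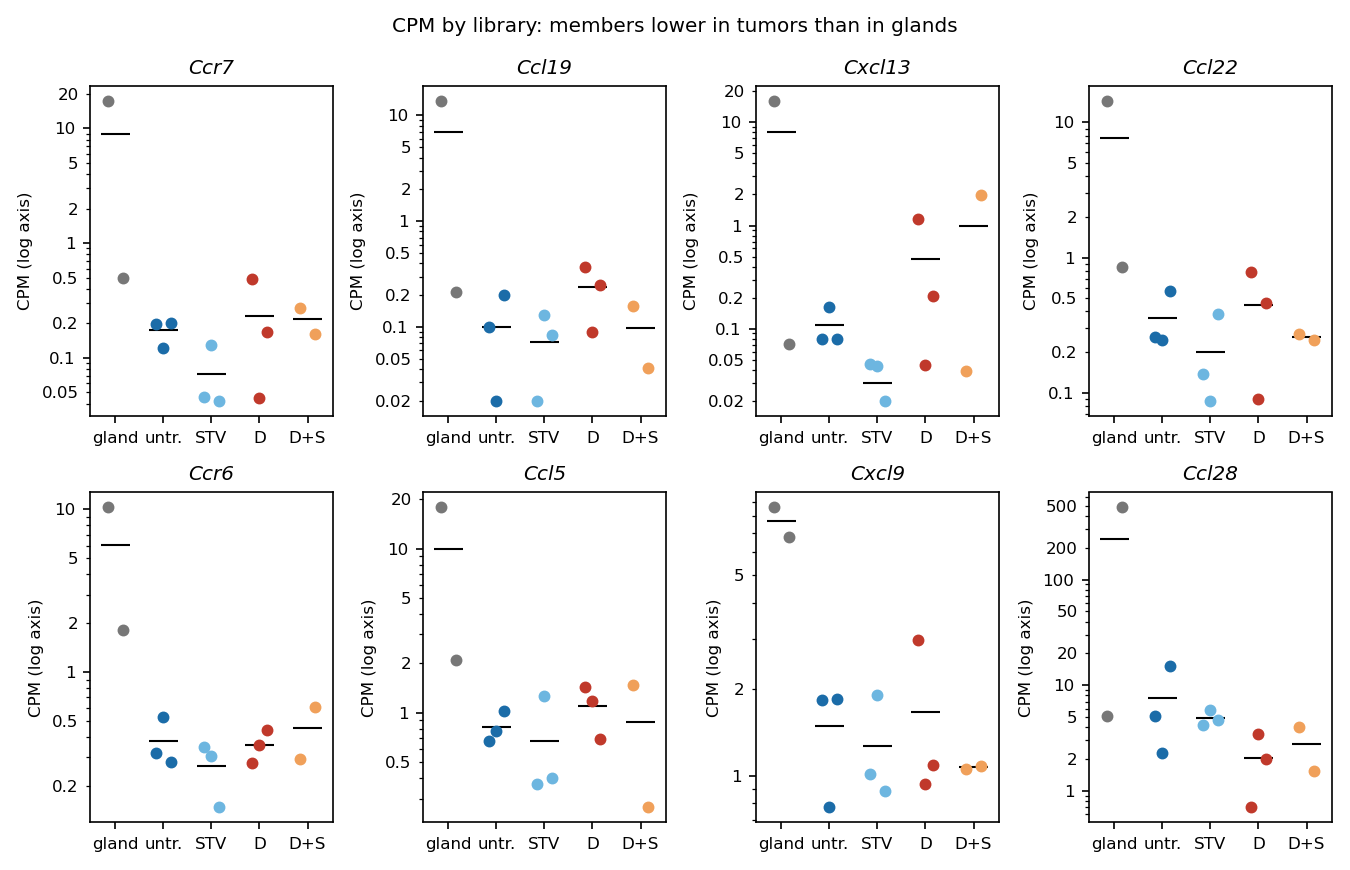
CPM (log axis) of 8 called members in each library: gland, primary untreated (untr.), primary stavudine (STV), recurrent 17-DMAG (D) and recurrent 17-DMAG + STV (D+S), with group means as bars and values of 0 drawn at 0.02. Both glands stand above every tumor for Ccr6 and Cxcl9, only gland 1 stands far above for Ccr7, Ccl19, Cxcl13 and Ccl22, and only gland 2 for Ccl28.

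By role, over the 45 members that passed the filter with and without the glands, 5 of 8 homeostatic ligands, 1 of 2 interferon-induced CXC ligands, 2 of 13 inflammatory CC ligands, 2 of 9 CC receptors and 2 of 6 CXC, CX3C and XC receptors were called lower, beside 8.81% of all genes, and none of the 4 neutrophil-attracting CXC ligands or the 3 transmembrane and C ligands was called (smallest adjusted p 0.0654 and 0.182). The median log2 fold change was −2.64 for the homeostatic ligands, −0.81 for the inflammatory CC ligands, −0.77 for the CC receptors, −0.56 for the other receptors, −0.65 for the neutrophil-attracting ligands and −0.46 for the transmembrane and C ligands. Without gland 1, over the members that this fit tested, the median log2 fold change was −0.74 for the homeostatic and −2.17 for the interferon-induced CXC ligands. It was −0.58 for the inflammatory CC ligands, −0.07 for the CC receptors and 0.82 for the CXC, CX3C and XC receptors. Without gland 2 these medians were, in the same order, −1.35, −2.58, −1.10, −1.78 and −1.91. Gland 1 exceeded every tumor for 19 of 38 members (50.0%), beside 15% of all genes, and gland 2 did so for 10 of 38 (26.3%), beside 25.8%. The level in gland 1 was at least 4 times that in gland 2 for 11 members (28.9%), beside 5.88% of all genes.

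Left without gland 1, the count of called members was 6 of 48 (beside 24.2% of all genes), Ccl28, Ccr6, Cxcl9, Cxcl14 and Cxcl17 lower and Cxcr4 higher. Without gland 2 it was 10 of 49 (beside 3.01%), all lower: Ccl5, Ccl19, Ccl22, Ccr6, Ccr7, Cxcl9, Cxcl13, Cxcr3, Cxcr5 and Xcr1. Without recurrent 17-DMAG + STV tumor 1 it was 8. The part of lymphoid or milk-producing tissue in these results was not tested beyond leaving the glands out. The level of Cx3cr1 was 24.5 and 19.8 CPM in the glands and at least 25.3 CPM in every tumor (median 32.7, highest 52.6 CPM), the 1 member with higher, non-overlapping tumor values, and its log2 fold change of 0.62 (SE 0.20) was not called (adjusted p = 0.0700, edgeR). It is given here because its groups did not overlap, after its values were seen.

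Of the genes around the chemokine system, those of receptor signalling that were called lower in tumors rested on gland 1. Of 28 tested genes of receptor signalling, 10 were called lower (among them Dock2, Grk5, Jak3, Pik3r5, Plcb2, Prkcb, Rac2 and Was), many of them leukocyte genes, beside 8.81% of all genes. Without gland 1 none was called lower and 4 were called higher (Arrb1, Elmo1, Gnai2 and Pik3cg), and without gland 2, 9 were called lower. Of 8 atypical receptors and chemokines with other symbols, Ackr3 and Ackr4, which take up chemokines without G protein signalling, were called lower, and without gland 2 none of the 8 was called. The protease gene Mmp9 was the 1 of 12 genes of shedding, processing and presentation, and the NF-kB inhibitor gene Nfkbia the 1 of 13 inducing cytokines and transcription factors, that were called, both lower, counts near the share of all genes. Without gland 2 no gene of either list was called, and without gland 1 Mmp9 was not called. Nfkbia had 68.8 and 82.4 CPM in glands and 21.0 to 47.8 CPM in tumors, with a log2 difference of −1.27 (SE 0.19, adjusted p = 0.00356, edgeR).

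The second question was whether stavudine changed chemokine RNA in primary tumors. No member was called of 45 tested, and no gene of 16870. At an unadjusted p under 0.05, edgeR gave 1 member higher and none lower, beside 1.32% and 2.44% of all genes, and DESeq2 and limma voom called no member after adjustment (DESeq2 called 0.102% of genes). The 3 members with the smallest p were the interferon-induced ligand Cxcl10, the stromal ligand Cxcl12 and its receptor Cxcr4, each with a higher fitted mean under stavudine.

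Cxcl10 was at 0.438, 0.122 and 0.321 CPM in the primary untreated tumors and at 0.391, 0.587 and 1.92 CPM under stavudine. The groups overlapped, and the log2 fold change was 1.69 (SE 0.71, adjusted p = 1.00, edgeR). Cxcl12 was at 54.1, 12 and 18.5 CPM without and 61.7, 27.9 and 87.7 CPM with stavudine, also overlapping, with a log2 difference of 1.06 (SE 0.54, adjusted p = 1.00). Cxcr4 was at 27.7, 23.8 and 19.5 CPM without and 43.3, 33.6 and 46.4 CPM with stavudine, and its groups did not overlap, as was so in this direction for 5% of all genes. The log2 fold change of Cxcr4 was 0.78 (SE 0.43, 95% interval −0.17 to 1.74, adjusted p = 1.00).

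By role, 12 of 13 inflammatory CC ligands and 7 of 9 CC receptors had a fitted log2 fold change below 0, with medians of −0.39 and −0.26, beside −0.03 over all genes. Primary stavudine tumor 3 was the lowest of the 11 tumors for 12 of 37 members (for all genes its share was 5.60%). Its Ccl8 was at 0.0422 CPM and its Ccr2 at 0.928 CPM, against 1.59 and 3.31 CPM and 3.59 and 4.83 CPM in the other stavudine tumors. Its macrophage marker sum of 174.7 CPM was the lowest of the tumors, close to primary stavudine tumor 1 (176.2 CPM). Its fibroblast and mesenchyme sum (309.4 CPM) was also the lowest of the tumors, against 763.7 and 431.8 CPM in primary stavudine tumors 1 and 2. The same held for its adipocyte (18.4 CPM) and mast cell (0 CPM) sums. The part of macrophages, fibroblasts or other cells in these levels was not tested.

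The third question was whether tumors that recurred under 17-DMAG differ from primary tumors. No member and no gene was called without stavudine, under stavudine or averaged over both (edgeR, adjusted p under 0.05). The averaged comparison sets the mean of the 2 recurrent groups against that of the 2 primary groups and so shares its libraries with the other two. In it, 12 members were higher and 1 lower in recurrent tumors at an unadjusted p under 0.05, beside 7.61% and 6% of all genes. The members above 1 CPM had a median log2 fold change of 0.58, beside 0.00 over all genes. At the same unadjusted threshold, 7 of 10 macrophage, 6 of 8 pan-leukocyte, 5 of 7 neutrophil and 5 of 9 fibroblast and mesenchyme markers were also higher in recurrent tumors and none was lower. Other leukocyte lists had fewer higher and none lower: 2 of 6 monocyte, 1 of 9 T cell and 1 of 8 dendritic cell markers. For NK cells it was 0 of 8, for mast cells 0 of 5, and for B cells and plasma cells 0 of 4 each. Of 8 luminal epithelium markers, 2 were higher and 1 lower. The macrophage markers summed to 174.7 to 236.4 CPM in primary and 186.4 to 617.8 CPM in recurrent tumors, the pan-leukocyte markers to 262.7 to 538.1 and 349.1 to 824.5 CPM, and those of fibroblasts and mesenchyme to 309.4 to 1025.1 and 386.0 to 6349 CPM. Most of the pan-leukocyte sum was Lcp1, for example 469.6 CPM in primary untreated tumor 2 and 696.6 CPM in recurrent 17-DMAG + STV tumor 1. Ptprc, of the same list, ran from 18.0 to 25.4 CPM in primary and 22.7 to 58.8 CPM in recurrent tumors. The part of macrophages, other leukocytes and fibroblasts in the members' levels was not tested. DESeq2 called 3 members higher in the averaged comparison, Cxcl1, Cx3cl1 and Cxcl13, beside 2.72% of all genes, and limma voom none.

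Cxcl1, a ligand of Cxcr2 that recruits neutrophils, was at 1.77, 1.43 and 1.36 CPM in primary untreated and 1.59, 1.00 and 1.31 CPM in primary stavudine tumors. It was at 2.32, 3.91 and 1.97 CPM in recurrent 17-DMAG tumors and 2.95 and 3.20 CPM in recurrent 17-DMAG + STV tumors. All 5 recurrent tumors lay above all 6 primary tumors, which no other member showed and which held in this direction for 0.652% of all genes. The averaged log2 fold change was 1.04 (SE 0.24, adjusted p = 0.287 by edgeR and 0.00696 by DESeq2), and it stayed between 0.87 and 1.13 when any 1 library was left out. Within the water arms it was 0.83 without stavudine (SE 0.33, adjusted p = 0.509, edgeR) and 1.25 with it (SE 0.36, adjusted p = 0.336, and 0.0494 by DESeq2). In the glands Cxcl1 was at 0.909 and 2.68 CPM. Its promoter, printed above, holds the 2 overlapping NF-kB matches.

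Cx3cl1 was at 31.1, 59.9 and 32.6 CPM in primary untreated, 27.9, 39.7 and 42.0 CPM in primary stavudine, 100.7, 64.0 and 31.7 CPM in recurrent 17-DMAG and 65.3 and 163.7 CPM in recurrent 17-DMAG + STV tumors. Recurrent 17-DMAG tumor 3 lay within the primary range and the other 4 recurrent tumors above it. The averaged log2 fold change was 1.15 (SE 0.35, adjusted p = 0.301 by edgeR and 0.0429 by DESeq2). Under stavudine alone the groups did not overlap, as in this direction for 17.4% of all genes, and the log2 fold change was 1.65 (SE 0.51, adjusted p = 0.376, edgeR). Without recurrent 17-DMAG + STV tumor 2, the highest tumor, it was 0.84.

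Cxcl13 had few reads. It was counted 4, 8 and 4 times in primary untreated, 2, 2 and 0 times in primary stavudine, 50, 2 and 10 times in recurrent 17-DMAG and 2 and 96 times in recurrent 17-DMAG + STV tumors. The high values were recurrent 17-DMAG tumor 1 (1.16 CPM) and recurrent 17-DMAG + STV tumor 2 (1.96 CPM), the tumors named above for their marker sums. The averaged log2 fold change was 3.53 (SE 1.09, adjusted p = 0.311 by edgeR and 0.0461 by DESeq2), and it went down to 1.24 when 1 library was left out. Under stavudine it was 4.97 (SE 1.69, adjusted p = 0.419, edgeR) and ran from 0.37 to 5.92 over the libraries left out.

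Without stavudine, the members with the smallest p were Cxcl12, Cxcl16 and Cxcl10, each higher in the fit of recurrent 17-DMAG tumors. At an unadjusted p under 0.05 there were 6 members higher and 2 lower, beside 4.79% and 4.90% of all genes. Cxcl12 was at 95, 82.3 and 83.5 CPM in recurrent 17-DMAG tumors, above each of the primary untreated tumors given before, and its log2 fold change was 1.61 (SE 0.54, adjusted p = 0.509, edgeR). Cxcl10 was at 1.34, 0.536 and 1.36 CPM, also above each primary untreated tumor, with a log2 difference of 1.86 (SE 0.72, adjusted p = 0.509). Groups did not overlap in this direction for 7.65% of all genes. Cxcl16 was at 14.2, 9.21 and 11.6 CPM in primary untreated and 28.0, 18.7 and 13.5 CPM in recurrent 17-DMAG tumors, with overlap, with a log2 difference of 0.77 (SE 0.29, adjusted p = 0.509).

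The Cxcl10 and Cxcl16 levels are uncertain in one respect. Each shares exon bases with a gene on the opposite strand, Cxcl10 133 bases with Art3 and Cxcl16 552 bases with Zmynd15, and the strand setting of the read counting is not stated. DESeq2 and limma voom also called no member in the comparison without stavudine (DESeq2 called 0.365% of genes). Under stavudine, 5 members were higher and none lower at an unadjusted p under 0.05, beside 5.42% and 4.64% of all genes, and DESeq2 called Cxcl1 alone, beside 2.1% of all genes.

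**Figure D4:**
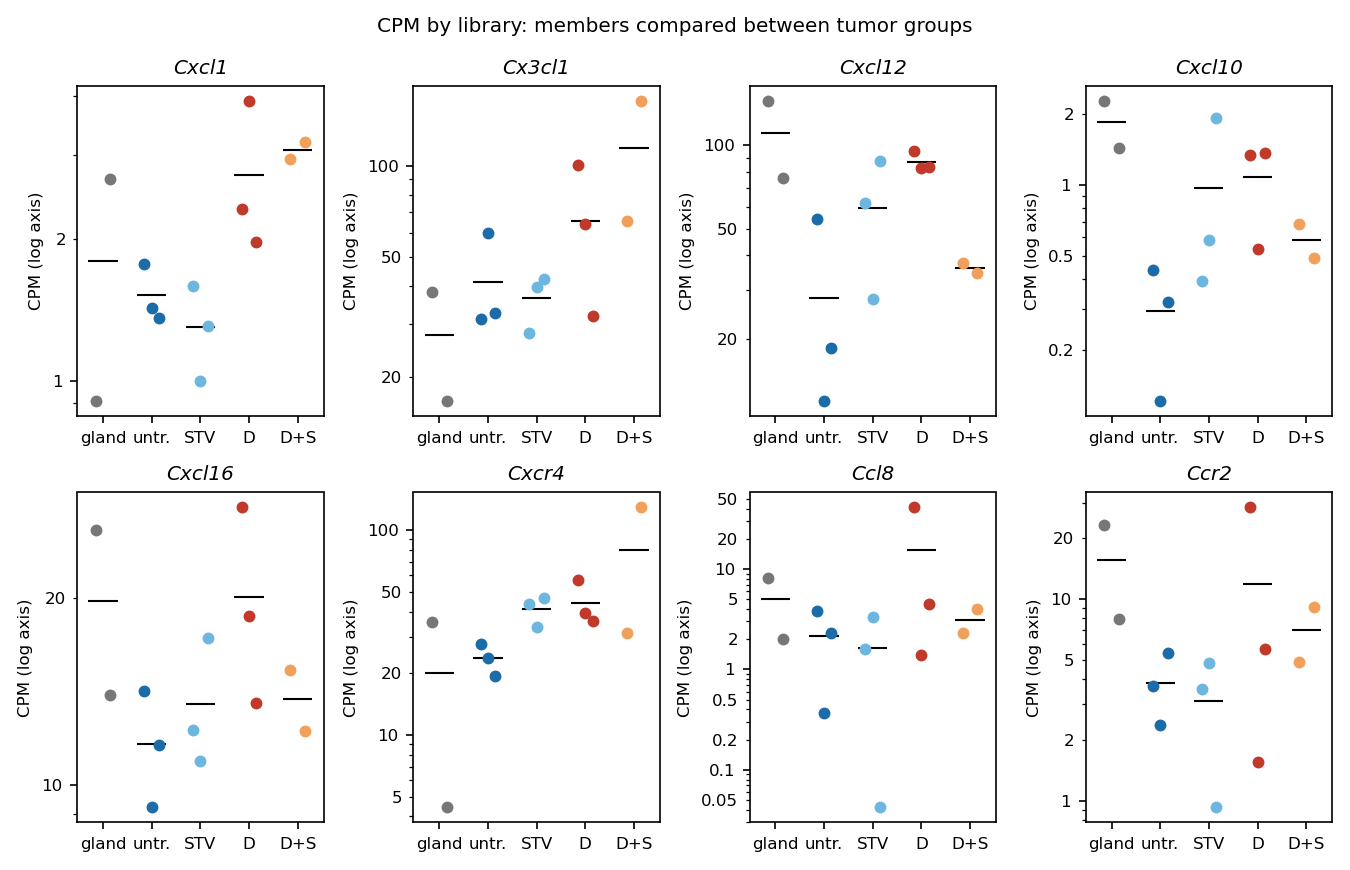
CPM (log axis) of 8 members in each library, with groups as gland, primary untreated (untr.), primary stavudine (STV), recurrent 17-DMAG (D) and recurrent 17-DMAG + STV (D+S), and group means as bars. For Cxcl1 the 5 recurrent tumors, from 1.97 CPM, lie above the 6 primary tumors, up to 1.77 CPM, while Ccl8 and Ccr2 are far higher in recurrent 17-DMAG tumor 1 than in the other tumors.

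The inflammatory CC ligands and their receptors were dominated by a single tumor. Recurrent 17-DMAG tumor 1 was the highest of the 11 tumors for 18 of 37 members (48.6%), beside 24.6% of all genes tested. Its summed inflammatory CC ligands were 156.1 CPM, against 7.04 to 35.0 CPM in the other tumors and 91.0 and 43.5 CPM in the glands. The monocyte and macrophage ligands Ccl8, Ccl6 and Ccl9 were at 41.0, 56.0 and 34.2 CPM in it, and no other tumor exceeded 4.45, 14.1 and 7.93 CPM. Ccr2, which the monocyte ligand Ccl2 binds, was at 28.3 CPM in it and at most 9.11 CPM in another tumor. Ccr1 was at 15.7 CPM, against at most 7.70 CPM in another tumor. This tumor also had the highest macrophage and monocyte marker sums, and the part of these cells was not tested.

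In the comparison without stavudine, whether these ligands appear higher in recurrent tumors depended on that tumor. Under stavudine, in groups that do not include that tumor, 10 of 13 inflammatory CC ligands had a log2 fold change above 0 (median 0.93). Without stavudine, 12 of 13 inflammatory CC ligands had a log2 fold change above 0, with a median of 0.75. Without recurrent 17-DMAG tumor 1, 6 of 13 did, with a median of −0.12. For all members above 1 CPM, 30 of 37 were above 0 (median 0.75) with that tumor and 23 of 35 (median 0.20) without it. In the averaged comparison 11 of 13 inflammatory CC ligands were above 0 with it (median 1.00) and 10 of 13 without it (median 0.50). At an unadjusted p under 0.05, 7 members were then higher and none lower in the averaged comparison, beside 5.25% and 5.56% of all genes.

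**Figure D5:**
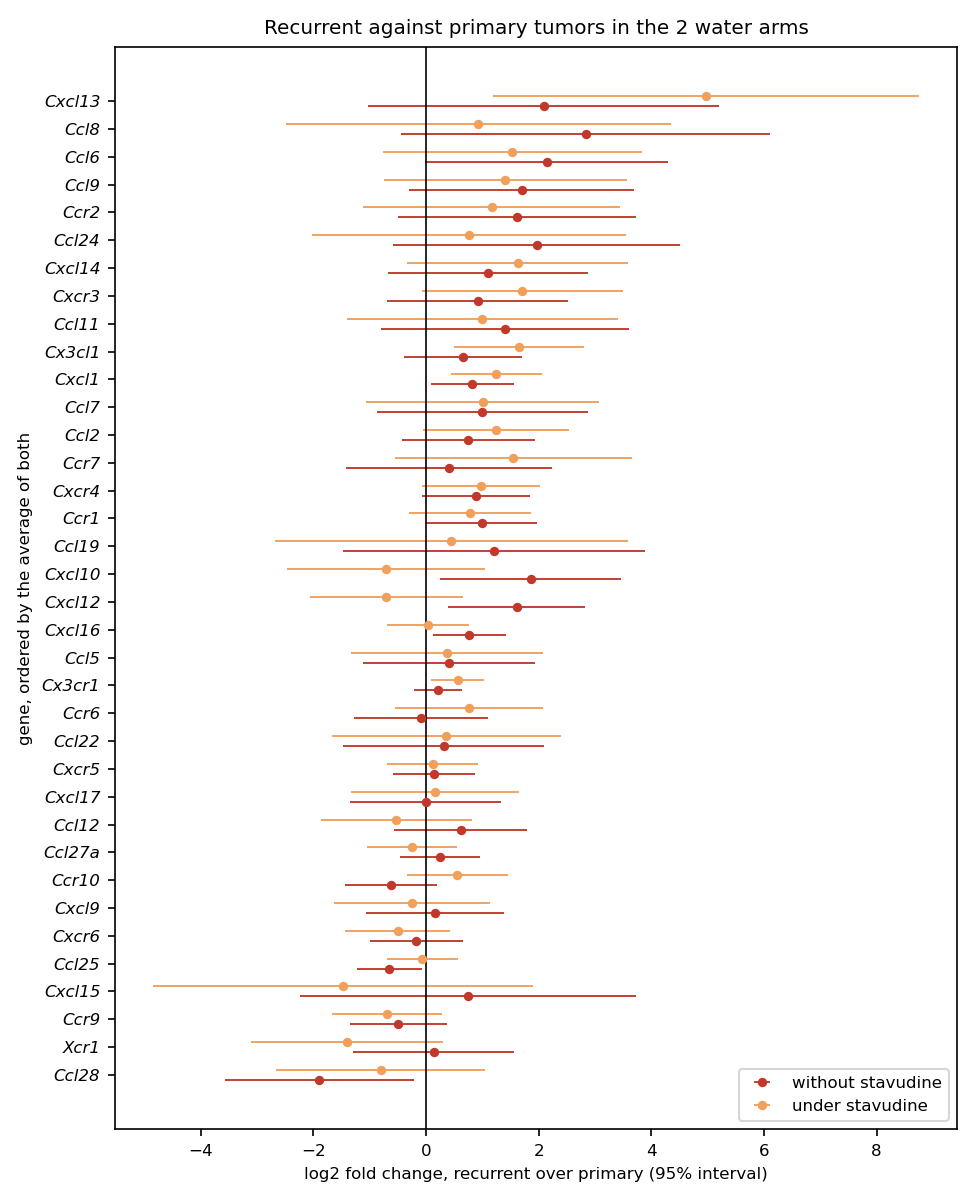
Log2 fold change of recurrent over primary tumors for 36 of the 37 tested members above 1 CPM, with 95% intervals from the edgeR fit, without stavudine (red) and under stavudine (orange). Most points lie to the right of 0 and most intervals cross it; Cxcl10 and Cxcl12 lie right of 0 without stavudine and left of 0 under it.

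The last questions were whether stavudine changed chemokine RNA in recurrent tumors and whether it altered the effect of recurrence. No member and no gene was called in either (edgeR), and DESeq2 and limma voom called no member (DESeq2 called 1.92% and 1.18% of genes). At an unadjusted p under 0.05 there was 1 member higher and none lower for stavudine in recurrent tumors, beside 3.46% and 4.38% of all genes, and there were 3 members lower and none higher for the interaction, beside 4.01% and 3.83%.

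The fitted recurrence effect on Cxcl12 had opposite signs without and with stavudine. In recurrent tumors Cxcl12 was at 37.4 and 34.6 CPM with stavudine, below the 3 recurrent 17-DMAG tumors and below 2 of the 3 primary stavudine tumors. Stavudine in recurrent tumors had a log2 fold change of −1.26 for Cxcl12 (SE 0.62, adjusted p = 0.685, edgeR). The interaction, the recurrence effect under stavudine minus that without, was −2.32 (SE 0.82, 95% interval −4.16 to −0.48, adjusted p = 0.567). For Cxcl10, at 0.684 and 0.489 CPM in recurrent 17-DMAG + STV tumors, it was −2.57 (SE 1.07, adjusted p = 0.610). Neither passed the test.

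Ccr10, the receptor of Ccl27 and Ccl28, was at 1.81, 2.63 and 1.52 CPM in primary untreated, 1.20, 2.39 and 1.43 CPM in primary stavudine, 1.18, 1.67 and 1.07 CPM in recurrent 17-DMAG and 2.35 and 2.57 CPM in recurrent 17-DMAG + STV tumors. The recurrent groups did not overlap, as in this direction for 10.9% of all genes, and the log2 fold change of stavudine in recurrent tumors was 0.92 (SE 0.40, adjusted p = 0.628, edgeR), with an interaction of 1.18 (SE 0.54, adjusted p = 0.641). Cxcr4 was at 57.2, 39.2 and 36.2 CPM in recurrent 17-DMAG and 31.3 and 128.8 CPM in recurrent 17-DMAG + STV tumors, with a log2 difference of 0.87 (SE 0.47, adjusted p = 0.727). Without the tumor at 128.8 CPM, number 2, it was −0.50, so its direction rested on that library.

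In none of the 6 tumor comparisons was any gene of the 4 surrounding lists (receptor signalling, atypical receptors and chemokines with other symbols, shedding and processing, inducing cytokines and transcription factors) called by edgeR. In the averaged recurrence comparison, 10 of 28 tested signalling genes, 3 of 8 atypical receptors and chemokines with other symbols, 3 of 12 processing genes and 3 of 13 inducers were higher at an unadjusted p under 0.05, beside the 7.61% given for all genes.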

How the data were processed

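The authors deposited unnormalized counts of reads for each gene, made from stranded, rRNA-depleted total RNA. Per the labels and processing notes the tools were bcl2fastq 2.20, STAR and featureCounts (Subread 1.6.2) on mm10/GRCm38. The strand and multi-mapping settings are not given in the sources used here. In each library 74.9% to 78.3% of the counts from 1 to 10 were even.

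Counts were tested in R 4.3.3 with edgeR 4.0.16 (filterByExpr on group, TMM factors, robust quasi-likelihood test, two-sided), the gland comparison on all 13 libraries (17135 genes, 48 members) and the others on the 11 tumors (16870 genes, 45 members). Cxcr2, Ccl20 and Cxcl11 passed the filter on low counts only with the glands. Adjustment followed Benjamini and Hochberg over all genes tested, and calls made at 0.05. CPM used the TMM factors of the 13 libraries. Folds use a prior count of 0.125. Alternatives included DESeq2 1.42.0 and limma 3.58.1 (voom).

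Named members were the called ones, at most 12 by p, and otherwise the 3 with the smallest p in a comparison. The members and lists were chosen with earlier results of these data known, so no list serves as independent support. Exon lengths, positions and overlaps came from GENCODE M21. On simulated counts the averaged recurrence test recovered 87.0% of 100 genes changed by 2 log2 units, among 16639 genes. The gland comparison recovered 71.0% of 100 among 16922 genes. Only genes with a mean above 1 CPM were changed, by the same fold in every library of the recurrent or tumor groups. Smaller changes were not simulated. Values of 3 genes are not reported here, and transposable element counts were not analysed.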

Additional observations from a re-analysis of the deposited data

How the results depend on the processing

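In the comparison of tumors with glands, 14 members were called, beside 10.4% of all genes. The count was also 14 with DESeq2's scaling factors in edgeR, without a filter on low counts or without milk, adipocyte and muscle genes. It was 16 with DESeq2 (1 higher), beside 19.1% of all genes, and 11 with limma voom. The count was 4 with the replicate number as a block, 2 (Ccr6 and Ccr7) with primary untreated tumors alone, 9 with library totals and no scaling factors (chosen after seeing the data), and 6 to 16 when 1 library was left out. The cause of these differences was not tested, other than that 2 of them use fewer samples. For limma voom, the block, the untreated tumors alone and the unscaled totals, the share of all genes is not given here. A loss of calls particular to the members cannot be told there from a general one. In the 6 tumor comparisons edgeR called no member under any alternative and with any library left out (0 to 0), and DESeq2 called 1 in recurrence under stavudine and 3 in the average. The results that turned direction were Cxcl13 in tumors against glands without gland 1 (1.48; −6.46 to 1.48 over all libraries left out) and Cxcr4 for stavudine in recurrent tumors without recurrent 17-DMAG + STV tumor 2 (−0.50; −0.50 to 1.54). Of the other single-gene results under an alternative, 514 kept their direction and side of the threshold, 48 lost a call and 4 gained one. Among tumors, samples with the same replicate number did not deviate together (r from −0.30 to 0.22 over 15 pairs, −0.37 to 0.37 over 30 others). The glands were not in this check, and deviations within a group of 2 mirror each other. It therefore cannot decide whether a block is needed. Nothing in the sources says that a replicate number marks a mouse, litter or day. The number of members above 1 CPM was 38 also with library totals, 42 above 0.5 CPM and 31 above 2 CPM. Over all genes, DESeq2 called 3242 in the gland comparison and edgeR 1785, and in the tumor comparisons DESeq2 called 17 to 419 and edgeR 0, or up to 141 with 1 library left out. Groups of 2 or 3 limit all tumor comparisons.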

Other observations

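The members that varied least between tumors were mostly those that overlap another listed gene in the annotation, a pattern noticed in the data. Of the 38 members above 1 CPM, 11 overlapped another gene of the count table, on either strand, and 8 of these were among the 10 members with the smallest ratio of highest to lowest tumor. The median ratio was 3.04 for the 11 overlapping members and 9.67 for the other 27. Cxcr5, the B cell follicle receptor, ran only from 2.28 to 4.52 CPM over the tumors, where the B cell markers summed to 1.52 to 3.52 CPM. It shares 110 exon bases with Bcl9l on the opposite strand, which was at 176.9 to 278.8 CPM in tumors. Cx3cr1, which ran from 25.3 to 52.6 CPM, had the second smallest ratio (2.08). Ccl25, a ligand of thymus and gut, ran from 3.14 to 6.68 CPM and shares 204 exon bases with Elavl1 (83.1 to 112.5 CPM). Cxcr6 lies within Fyco1 (78.1 to 227.0 CPM) without shared exon bases, and ran from 3.15 to 10.0 CPM. Exceptions were Ccl6 and Cxcl10, which overlap a listed gene and varied 44.2 and 15.7 times. The part of reads from the overlapping genes was not tested, and the strand setting of the counting is not stated.

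The neutrophil marker sum was mostly Ltf, a gene also expressed in milk-producing epithelium, at 14165 CPM in gland 2, 712.8 CPM in recurrent 17-DMAG tumor 1 and 575.8 CPM in recurrent 17-DMAG + STV tumor 1. The other 7 neutrophil markers summed to 21.0 CPM in recurrent 17-DMAG tumor 1, 11.9 and 11.2 CPM in the recurrent 17-DMAG + STV tumors and 2.79 to 4.62 CPM in the other tumors. Cxcl1 was at 2.32, 2.95 and 3.20 CPM in these 3 tumors, and at 3.91 and 1.97 CPM in recurrent 17-DMAG tumors 2 and 3. A relation between Cxcl1 and the neutrophil markers was not tested.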
